A study of Mus musculus with 9 samples.

Results

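The naive pluripotency transcription factors are the 10 genes Tfcp2l1, Tbx3, Klf2, Klf4, Klf5, Esrrb, Nanog, Zfp42, Prdm14 and Nr0b1, taken by name from tables of 24411 genes. All 10 were found in every table and all 10 passed the filter on low counts, which left 14300 genes. RNA was read by sequencing polyadenylated transcripts of EB5 mouse embryonic stem cells, a male line derived from E14tg2a cells of the 129Ola strain and grown on gelatin with serum and leukemia inhibitory factor (LIF). There were 9 libraries, 3 of each genotype. Parental cells had no deletion of the studied zinc finger genes, Zfp352-KO cells had Zfp352 deleted with CRISPR-Cas9, and Zfp352/Zfp353-DKO cells had both Zfp352 and Zfp353 deleted. All of them carried the blasticidin resistance gene of EB5 at 1 allele of Pou5f1 (Oct3/4). The labels do not say how many clones or separate cultures stood behind the libraries, so p-values below rest on the spread among these libraries alone, and that spread may be technical.

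Naive pluripotency is the state of the preimplantation epiblast, which mouse embryonic stem cells keep in culture. It is held by a network of transcription factors that activate one another beside the core factors encoded by Pou5f1 and Sox2. LIF acts through STAT3 on Klf4 and Tfcp2l1, WNT signalling relieves the repressor TCF7L1 from Esrrb, Nanog, Klf2 and Tfcp2l1, and FGF and ERK signalling drives the cells out of the state towards the formative one.

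The libraries held between 16599004 and 22044820 expected counts. Libraries of the same genotype were no duplicates of one another: their counts differed by 2.49 to 6.9 times the chi-square that sampling alone gives. Levels are given as TPM, the authors' abundance per transcript length scaled to the same total in every library. The targeted gene checked the labels: Zfp352 stood at 1.86 ± 0.162 TPM (SD, n = 3) in Parental cells, at 0.293 ± 0.126 TPM after its own deletion and at 0.0733 ± 0.0577 TPM after deletion of both genes. Each difference had p = 0.1 by exact permutation of log2(TPM + 0.1), two-sided, which is the lowest p reachable with 3 libraries on each side. None of the 24411 genes was named Zfp353 or Zfp353-ps, so the label that sets the double knockout apart from the single one could not be checked by its own gene. The stem cell markers were abundant in every library, with Pou5f1 between 1095 and 1222 TPM and Sox2 between 347 and 434 TPM. Long transcripts were read more in some libraries than in others. This length trend, the Spearman correlation across genes of transcript length with each gene's log2 CPM (the count scaled to the library's total) relative to its mean over the 9 libraries, was -0.307, -0.401 and -0.0818 for Parental replicates 1 to 3. It was 0.388, 0.188 and -0.0659 for the single knockout and -0.127, -0.0223 and 0.36 for the double knockout replicates.

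In Parental cells the 10 factors spanned a wide range of levels per transcript length. Zfp42, which encodes the zinc finger protein REX1 and is a classical marker of the naive state, was the most abundant at 1070 ± 29.9 TPM (SD, n = 3). Klf2, a Krüppel-like zinc finger factor gene, followed at 438 ± 16.3 TPM, and Nanog, the homeodomain factor that sustains self-renewal, at 404 ± 1.23 TPM. Esrrb, an orphan nuclear receptor gene, was at 259 ± 16.9 TPM and Klf5 at 112 ± 7.16 TPM. Nr0b1, the X-linked gene of the nuclear receptor DAX1, and Klf4, a STAT3 target, stood at 77.3 ± 6.24 and 72.9 ± 4.19 TPM, and their libraries overlapped. Tfcp2l1, a CP2-family factor gene downstream of LIF, and Tbx3, a T-box factor gene, were at 31.0 ± 2.62 and 29.1 ± 1.3 TPM and overlapped as well. Prdm14, whose product restrains FGF signalling and DNA methyltransferase genes, was the lowest at 18.4 ± 0.242 TPM. Between 465 (Prdm14) and 22422 (Zfp42) expected counts lay behind each value. All of the members' expected counts were whole numbers (within 0.005) in all 9 libraries, so none held a fraction of a read divided with another gene.

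**Figure D1:**
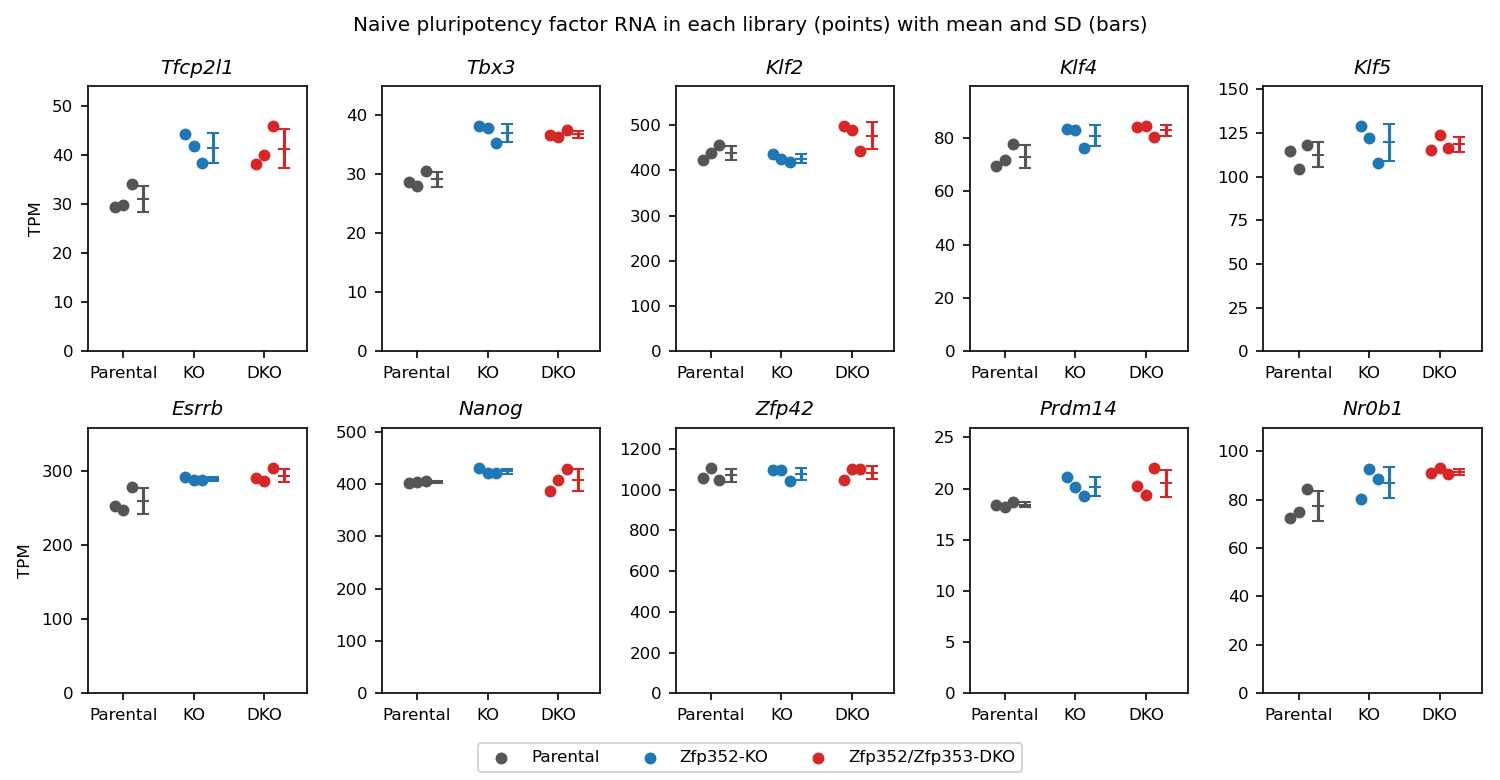
TPM of each of the 10 factors (vertical axes, each from 0) in the 3 Parental (grey), 3 Zfp352-KO (blue) and 3 Zfp352/Zfp353-DKO (red) libraries; points are libraries in the order 1 to 3, and bars give mean and SD. All edited libraries lie above all Parental ones for Tfcp2l1, Tbx3, Esrrb and Prdm14, whereas the genotypes overlap for Zfp42 and Klf5. The share of all tested genes that separate in this way was not computed, and the main test called neither Esrrb nor Prdm14.

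Deletion of Zfp352 alone was compared with Parental cells to ask how the factors respond to its loss. Tfcp2l1 and Tbx3 rose in Zfp352-KO cells, by 0.37 ± 0.06 and 0.30 ± 0.05 on the log2 scale (SE), which is 1.29-fold and 1.23-fold. The other 8 factors passed no threshold, and none fell past it. The 2 of 10 called factors stand against 7.06% of all tested genes called in either direction (3.43% higher and 3.64% lower). The median log2 fold change of the 10 factors was 0.09 and that of all tested genes -0.01. Calls were made at an adjusted p under 0.05 in the quasi-likelihood test of edgeR, adjusted by Benjamini and Hochberg's method over all 14300 genes.

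Deletion of both genes was compared with the same Parental libraries. Tfcp2l1 (0.37 ± 0.06) and Tbx3 (0.30 ± 0.05) rose again, and Nr0b1 rose by 0.20 ± 0.06 on the log2 scale. The remaining 7 factors passed no threshold. The 3 of 10 called factors stand against 8.47% of all tested genes called (3.65% higher and 4.82% lower), and the median log2 fold change was 0.13 for the factors and 0.00 for all genes. With the length trend removed from each library, 3 of the 10 were called higher after the single and 6 after the double deletion. In all, 449 and 787 of 14300 genes were higher there. With length and GC content removed these were 5 and 6 of the 10, and 406 and 786 of the 13776 tested genes with a GC content. Both comparisons use the same Parental libraries, so a pattern they share is not independent evidence.

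**Figure D2:**
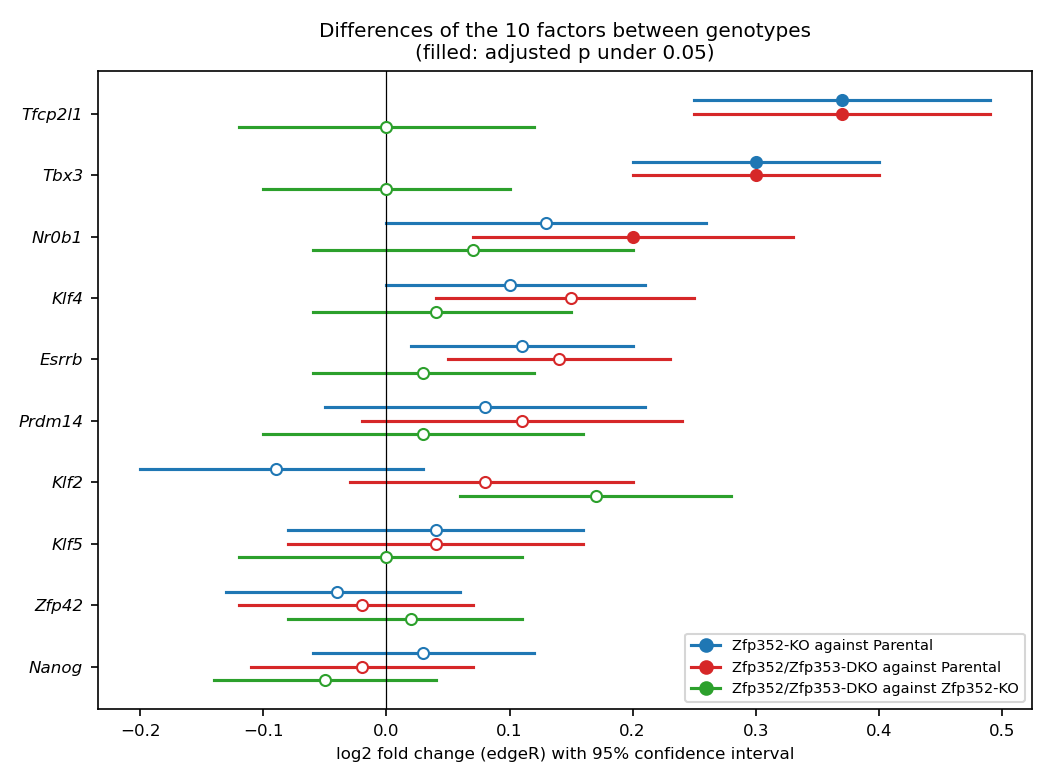
Log2 fold changes from edgeR (horizontal axis) of each factor in the 3 comparisons, with lines for 95% confidence intervals from the standard error; filled points have an adjusted p under 0.05. Tfcp2l1 at 0.37 and Tbx3 at 0.30 stand furthest from 0 in both comparisons with Parental cells, and every point of the comparison between edited genotypes (green) is open.

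Among the factors downstream of LIF, Tfcp2l1 lies on the plus strand of chromosome 1 at 118627923 to 118685168 (GRCm38.p6, the assembly also called mm10). It was at 29.4, 29.7 and 34.1 TPM in Parental libraries 1 to 3, at 44.3, 41.7 and 38.3 TPM in Zfp352-KO libraries and at 38.2, 39.9 and 45.8 TPM in Zfp352/Zfp353-DKO libraries. The lowest edited library was above the highest Parental one. How many of all tested genes separate in this way was not counted, here or for the factors below. The edgeR adjusted p was 0.00081 for Zfp352-KO and 0.00042 for Zfp352/Zfp353-DKO cells. Tfcp2l1 has a transcript of 9270 bases, longer than most tested genes (97.7th percentile). Within each edited genotype its TPM had the same order over the libraries as their length trend; among the Parental libraries it did not, since library 2 had the lowest trend and library 1 the lowest TPM. Of the 325 tested genes at least as long, 23.7% were called higher and 1 gene lower in Zfp352-KO cells, and 13.2% were called higher and 9 genes lower in Zfp352/Zfp353-DKO cells. With the length trend removed from each library the rise was 0.23 ± 0.04 in Zfp352-KO cells (edgeR adjusted p = 0.000864) and 0.29 ± 0.04 after both deletions (4.33e-05), and with length and GC content removed together it was 0.26 and 0.32. Tfcp2l1 was called in all 20 alternatives run for either comparison.

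Klf4, the other LIF and STAT3 target among the factors, lies on the minus strand of chromosome 4 at 55527137 to 55532475, 34.7 megabases from Zfp352. It was at 69.4, 71.7 and 77.6 TPM in Parental, 83.3, 82.9 and 76.2 TPM in Zfp352-KO and 83.8, 84.2 and 80.4 TPM in Zfp352/Zfp353-DKO libraries. Zfp352-KO library 3 fell among the Parental values, and the double knockout libraries were all above them. The log2 fold change was 0.10 ± 0.05 (edgeR adjusted p = 0.23) in Zfp352-KO and 0.15 ± 0.05 (edgeR adjusted p = 0.081) in Zfp352/Zfp353-DKO cells. With length and GC content removed it was 0.21 and 0.22, both past the threshold (edgeR adjusted p = 0.00256 and 0.000827).

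Tbx3, on the plus strand of chromosome 5 at 119670534 to 119684724, encodes a repressor and activator of the T-box family that can sustain self-renewal. It was at 28.70, 28.03 and 30.54 TPM in Parental, 38.1, 37.7 and 35.2 TPM in Zfp352-KO and 36.7, 36.2 and 37.4 TPM in Zfp352/Zfp353-DKO libraries. Here too no edited library overlapped a Parental one. The edgeR adjusted p was 0.00081 and 0.00042 for the 2 edited genotypes. Over the 20 alternatives the rise lay between 0.26 and 0.35 in Zfp352-KO cells and between 0.28 and 0.34 in Zfp352/Zfp353-DKO cells, and all of them called it. In Parental cells Tbx3 and Tfcp2l1 overlapped in TPM, whereas in each edited genotype all libraries had more Tfcp2l1 than any had Tbx3. The margin was narrow: the nearest values were 38.25 and 38.05 TPM in Zfp352-KO and 38.15 and 37.40 TPM in Zfp352/Zfp353-DKO libraries. These TPM were not corrected for the length trend.

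Nr0b1 and Esrrb encode nuclear receptors. Nr0b1, on the plus strand of chromosome X at 86191775 to 86195947, encodes a receptor without the usual DNA-binding domain that acts as a corepressor. It was at 72.6, 75.0 and 84.4 TPM in Parental, 80.1, 92.5 and 88.4 TPM in Zfp352-KO and 90.9, 92.8 and 90.5 TPM in Zfp352/Zfp353-DKO libraries. Zfp352-KO library 1 overlapped the Parental range, and no double knockout library did. The log2 fold change was 0.13 ± 0.06 in Zfp352-KO cells (edgeR adjusted p = 0.22) and 0.20 ± 0.06 after both deletions (edgeR adjusted p = 0.049). That call sits at the threshold. It was lost without Parental library 1 (edgeR adjusted p = 0.24) or 2 (0.117), without Zfp352/Zfp353-DKO library 1 (0.0859) or 2 (0.137) and with a replicate block (0.0606). With length and GC content removed, Nr0b1 was called in both edited genotypes, at 0.24 ± 0.05 and 0.30 ± 0.05 (edgeR adjusted p = 0.0041 and 0.000226).

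Esrrb, on the plus strand of chromosome 12 at 86361117 to 86521628, encodes an orphan receptor that binds many targets of NANOG and is itself released by WNT signalling. It was at 252, 247 and 278 TPM in Parental, 292, 288 and 287 TPM in Zfp352-KO and 290, 287 and 303 TPM in Zfp352/Zfp353-DKO libraries, with no overlap between edited and Parental cells. The differences were small. The log2 fold change was 0.11 ± 0.04 (edgeR adjusted p = 0.12) in Zfp352-KO and 0.14 ± 0.04 (edgeR adjusted p = 0.053) in Zfp352/Zfp353-DKO cells. Esrrb passed the threshold in 2 of 20 alternatives for Zfp352-KO and in 9 of 20 for Zfp352/Zfp353-DKO cells, DESeq2 among the latter (DESeq2 adjusted p = 0.0133).

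The windows around the transcription starts of Tfcp2l1, Nr0b1 and Esrrb, from RefSeq (GRCm38.p6), are shown because Tfcp2l1 and Nr0b1 were called and Esrrb had no overlap with Parental cells in either edited genotype. Each runs 5′ to 3′ on the gene's strand from 250 bases before the start to 50 after it. For Tfcp2l1 the start used lies downstream of the gene start at 118627923 given above. Capitals mark the letters searched on both strands: GGGNGTGG, a Krüppel-like factor motif, TTCNNNGAA, a STAT motif, TCAAGGTCA, an ESRRB motif, ATGCAAAT, the octamer bound by OCT factors, and TATAAA, a core promoter element. The window of Tfcp2l1 is chr1:118627695-118627994, that of Nr0b1 is chrX:86191525-86191824 and the first of Esrrb is chr12:86360867-86361166, all on the plus strand.
Tfcp2l1: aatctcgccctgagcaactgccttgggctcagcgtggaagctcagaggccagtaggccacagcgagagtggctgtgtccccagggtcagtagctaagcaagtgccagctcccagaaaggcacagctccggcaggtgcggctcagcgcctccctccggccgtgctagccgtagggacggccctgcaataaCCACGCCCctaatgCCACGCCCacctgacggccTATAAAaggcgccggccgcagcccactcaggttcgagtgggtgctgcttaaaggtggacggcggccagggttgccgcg
Nr0b1: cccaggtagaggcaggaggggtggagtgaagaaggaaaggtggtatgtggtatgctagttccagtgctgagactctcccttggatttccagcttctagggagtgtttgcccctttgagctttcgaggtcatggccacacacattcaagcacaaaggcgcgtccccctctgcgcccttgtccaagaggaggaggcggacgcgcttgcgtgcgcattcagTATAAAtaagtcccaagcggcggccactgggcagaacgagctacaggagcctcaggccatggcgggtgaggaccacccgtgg
Esrrb: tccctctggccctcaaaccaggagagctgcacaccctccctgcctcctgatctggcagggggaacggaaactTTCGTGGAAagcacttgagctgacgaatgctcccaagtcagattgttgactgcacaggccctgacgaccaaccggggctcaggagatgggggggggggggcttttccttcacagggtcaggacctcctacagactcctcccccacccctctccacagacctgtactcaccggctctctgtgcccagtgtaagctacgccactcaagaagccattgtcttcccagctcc

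The Tfcp2l1 window held the Krüppel-like letters at bases 190 to 197 and again at 204 to 211, both read as CCACGCCC on this strand, and TATAAA at bases 223 to 228, with no overlap between them. TATAAA stood at bases 219 to 224 of the Nr0b1 window. The Esrrb window held the STAT letters as TTCGTGGAA at bases 73 to 81. Of 32544 distinct windows of 300 bases, 17.7% held the Krüppel-like motif, 13.6% TATAAA, 8.33% the STAT motif, 1.75% the octamer and 0.412% the ESRRB motif. Of the 10 factors 7 had a window, and Tbx3, Klf5 and Prdm14 had none. Among the others, both Nanog windows and that of Zfp42 held the Krüppel-like letters, and that of Zfp42 also held the octamer, while the windows of Klf2 and Klf4 and the second of Esrrb held none of the letters searched. These matches describe the letters of the windows and say nothing of binding.

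Klf2 and Klf5 are Krüppel-like genes, as Klf4 is, and their products bind many of the same sites. Klf2, on the plus strand of chromosome 8 at 72319062 to 72321654, was at 422, 437 and 455 TPM in Parental, 436, 425 and 418 TPM in Zfp352-KO and 497, 490 and 443 TPM in Zfp352/Zfp353-DKO libraries. Its values lay on opposite sides of 0 in the 2 edited genotypes, at -0.09 ± 0.05 (edgeR adjusted p = 0.36) and 0.08 ± 0.05 (edgeR adjusted p = 0.36), neither past the threshold. The sign in Zfp352-KO cells turned with length and GC content removed (0.09 ± 0.04, edgeR adjusted p = 0.208), and the double knockout value became 0.20 ± 0.04 (edgeR adjusted p = 0.000667). Klf5, on the plus strand of chromosome 14 at 99298691 to 99313412, ran from 105 to 118 TPM in Parental, from 108 to 129 TPM in Zfp352-KO and from 115 to 124 TPM in Zfp352/Zfp353-DKO libraries. These ranges overlapped. The log2 fold change of Klf5 was 0.04 ± 0.06 in both comparisons (95% confidence interval -0.08 to 0.16).

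Nanog, Zfp42 and Prdm14 complete the set. Nanog, on the plus strand of chromosome 6 at 122707489 to 122714633, was at 403, 405 and 406 TPM in Parental, 430, 422 and 422 TPM in Zfp352-KO and 386, 407 and 429 TPM in Zfp352/Zfp353-DKO libraries. The Zfp352-KO libraries lay above the Parental ones in TPM, but their CPM overlapped (475 to 489 against 462 to 482). The 95% confidence interval of the log2 fold change was -0.06 to 0.12 in Zfp352-KO and -0.11 to 0.07 in Zfp352/Zfp353-DKO cells. Zfp42, on the minus strand of chromosome 8 at 43295067 to 43307009, lies 1.2 megabases from the locus annotated as Zfp353-ps. It ran from 1047 to 1104 TPM in Parental, from 1040 to 1095 TPM in Zfp352-KO and from 1046 to 1102 TPM in Zfp352/Zfp353-DKO libraries, and the genotypes overlapped almost fully. The intervals of its log2 fold change were -0.13 to 0.06 and -0.12 to 0.07. Prdm14, on the minus strand of chromosome 1 at 13113428 to 13127163, was at 18.4, 18.2 and 18.7 TPM in Parental, 21.1, 20.2 and 19.2 TPM in Zfp352-KO and 20.27, 19.34 and 21.97 TPM in Zfp352/Zfp353-DKO libraries. All edited libraries were above the Parental ones. Its log2 fold changes of 0.08 ± 0.06 and 0.11 ± 0.06 were not called (edgeR adjusted p = 0.45 and 0.28) as reported here or in any of the 20 alternatives of either comparison.

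**Figure D3:**
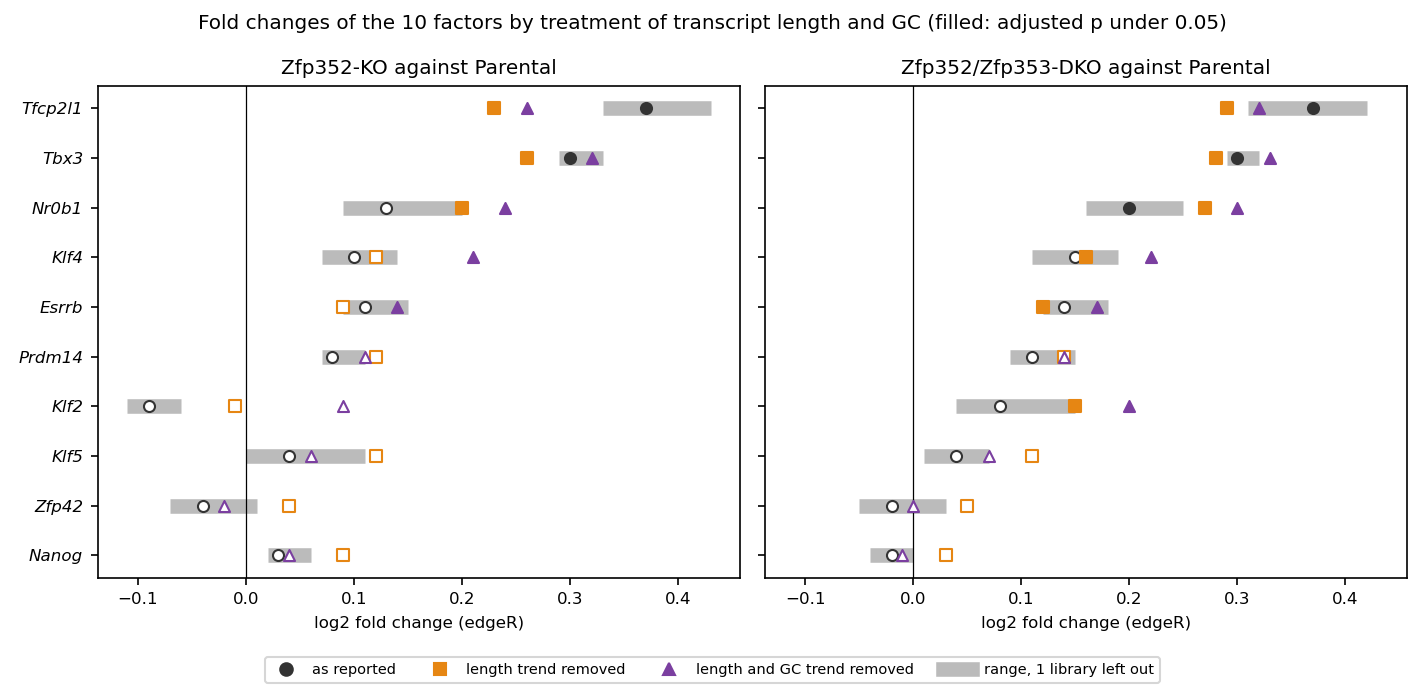
Log2 fold change (horizontal axis) of each factor against Parental cells for Zfp352-KO (left) and Zfp352/Zfp353-DKO cells (right), as reported (circles), with the length trend removed from each library (squares) and with length and GC content removed (triangles); grey bars span the values with any 1 library left out and filled symbols have an adjusted p under 0.05. Tfcp2l1 moves from 0.37 to 0.23 in Zfp352-KO cells when the length trend is removed, while Klf4, Nr0b1 and Klf2 move up when length and GC content are removed.

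The edited genotypes, which by their labels differ in the deletion of Zfp353, were compared with each other. Their Zfp352 RNA differed in level as well, at 0.16 to 0.41 TPM in Zfp352-KO and 0.04 to 0.14 TPM in Zfp352/Zfp353-DKO libraries. Those ranges did not overlap, though the difference was not called (-1.99 ± 0.62, edgeR adjusted p = 0.45). The number of clones is not given either, so the comparison does not isolate the deletion of Zfp353. None of the 10 factors was called by edgeR or by DESeq2, against 0.105% of all tested genes by edgeR. Of the 10, 1 factor had an unadjusted p under 0.05, and the share of all tested genes under that level was not computed. That factor was Klf2, higher in the double knockout by 0.17 ± 0.05 (edgeR unadjusted p = 0.0053, adjusted p = 0.47), with no overlap in TPM between the edited genotypes. Without Zfp352/Zfp353-DKO library 3 its difference was 0.24 ± 0.05 and passed the threshold (edgeR adjusted p = 0.0367). This was the only 1 of 20 alternatives that called Klf2 between the edited genotypes. Tfcp2l1 differed by 0.00 ± 0.06 (95% confidence interval -0.12 to 0.12), Tbx3 by 0.00 ± 0.05 (-0.10 to 0.10) and Nr0b1 by 0.07 ± 0.06 (-0.06 to 0.20). The double knockout call of Nr0b1 is thus not shown to differ from its value in Zfp352-KO cells.

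Other genes of the naive state were read from a list of 16. The counts of this list and of those below stand against 7.06% of all tested genes called after the single and 8.47% after the double deletion. In Zfp352-KO cells 5 rose and none fell, with 11 not called. The adhesion gene Jam2 rose by 0.31 ± 0.05, the lysosomal mannosidase gene Manba by 0.26 ± 0.05, the AKT coactivator gene Tcl1 by 0.23 ± 0.06 and Zfp57, which keeps methylation at imprinted loci, by 0.21 ± 0.05. In Zfp352/Zfp353-DKO cells 6 rose and 1 fell. Manba rose by 0.39 ± 0.04, Tcl1 by 0.36 ± 0.06 and Jam2 by 0.35 ± 0.05. Dppa3, a maternal factor gene also known as Stella, fell by 0.34 ± 0.06 on the log2 scale, from 203 to 230 TPM in Parental to 178 to 181 TPM in the double knockout libraries. The median log2 fold change of the list was 0.11 and 0.10. Without Parental library 1 only 2 rose after the single and 3 after the double deletion, and without Zfp352-KO library 2 the count in Zfp352-KO cells was 2. The Zfp352-KO calls of Tcl1 (edgeR adjusted p = 0.163) and Zfp57 (0.0871) were among those lost without Parental library 1, and both were also lost without Zfp352-KO library 2 (0.0938 and 0.0918). That of Tcl1 was lost without Zfp352-KO library 3 (0.0507) or Parental library 3 (0.0605) as well.

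**Figure D4:**
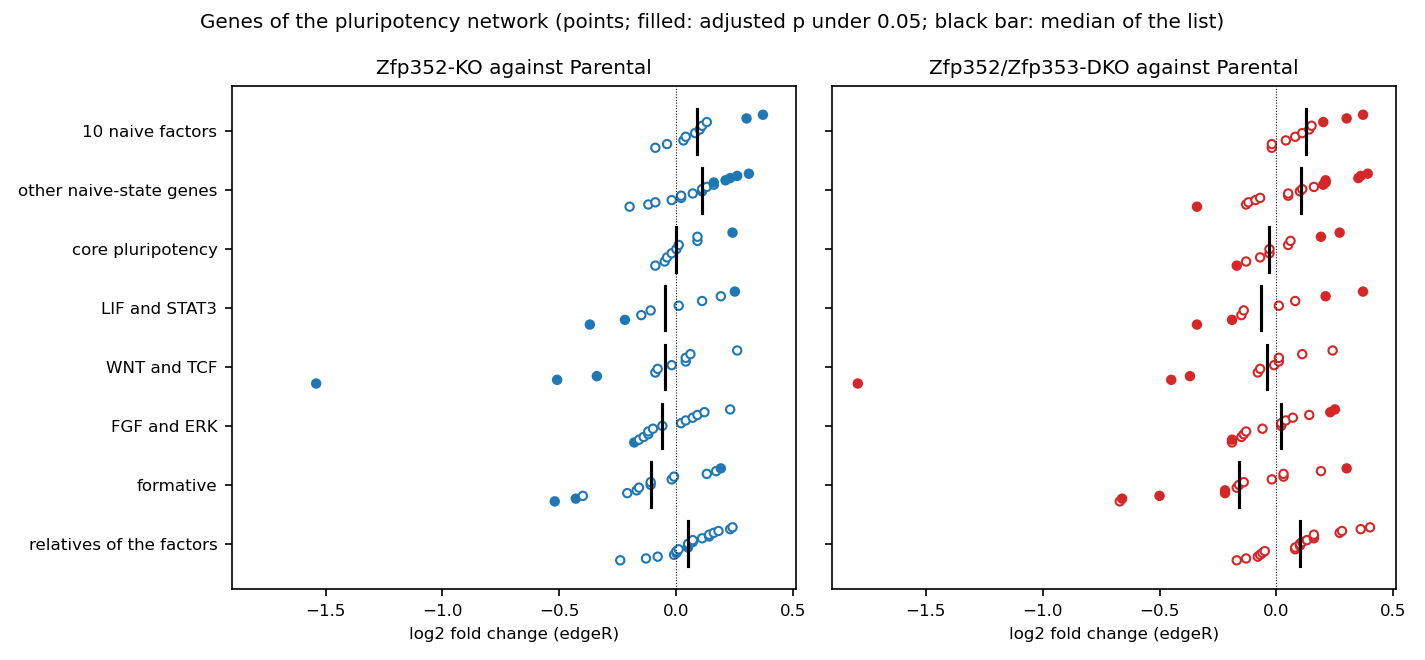
Log2 fold changes from edgeR (horizontal axis) of all tested genes in 8 lists of the pluripotency network for Zfp352-KO (left) and Zfp352/Zfp353-DKO cells (right) against Parental; each point is a gene, filled where the adjusted p is under 0.05, and black bars are list medians. The medians of the 10 factors (0.09 and 0.13) and of the other naive genes (0.11 and 0.10) lie above 0 and that of the formative genes below it (-0.11 and -0.16), and Sp5 lies far to the left among the WNT genes.

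Of 9 core pluripotency genes, 1 was called after the single and 3 after the double deletion, against 7.06% and 8.47% of all tested genes. The zinc finger gene Zfp281 rose in Zfp352-KO cells (0.24 ± 0.06), and in Zfp352/Zfp353-DKO cells Zfp281 (0.27 ± 0.06) and Sox2 (0.19 ± 0.04) rose while Dppa2, a chromatin factor gene of early embryos, fell by 0.17 ± 0.05. Pou5f1 was at -0.09 ± 0.05 and -0.07 ± 0.05 and was not called (edgeR adjusted p = 0.29 and 0.41). The Zfp281 call in Zfp352-KO cells was lost without Parental library 1 (edgeR adjusted p = 0.116) or Zfp352-KO library 1 (0.0943) or 2 (0.0508), and with length and GC content removed (0.0586, with a rise of 0.12). The Dppa2 call was lost without Parental library 1 (edgeR adjusted p = 0.113) or 2 (0.158), Zfp352/Zfp353-DKO library 2 (0.0916) or 3 (0.0951) or Zfp352-KO library 2 (0.0509), and with the length trend removed (0.109). With limma on log2(TPM + 1) or log2(TPM + 0.1) none of the 9 was called in Zfp352-KO cells. In the double knockout 2 rose and none fell with either form, so the Dppa2 call was lost there too.

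The inputs of the network did not move as 1 group. Stat3, the LIF effector gene, was at 0.01 ± 0.05 in both comparisons (edgeR adjusted p = 0.90 and 0.95). Of 8 LIF and STAT3 genes the receptor gene Lifr rose in Zfp352-KO cells by 0.25 ± 0.07, and the STAT3-responsive genes Junb and Pim3 fell by 0.37 ± 0.08 and 0.22 ± 0.05. In Zfp352/Zfp353-DKO cells Lifr (0.37 ± 0.07) and the coreceptor gene Il6st (0.21 ± 0.06) rose, and Junb (-0.34 ± 0.08) and the feedback inhibitor gene Socs3 (-0.19 ± 0.05) fell. With length and GC content removed, 0 of the 8 were called in Zfp352-KO cells and Lifr was at 0.14 (edgeR adjusted p = 0.082). All Zfp352-KO calls of this list were also lost without Parental library 1 and without Zfp352-KO library 1, and those of Lifr (edgeR adjusted p = 0.125) and Pim3 (0.0566) without Zfp352-KO library 2, and that of Lifr without Parental library 2 (0.123). In the double knockout only the Lifr call held without Parental library 1. The calls of Il6st and Socs3 were also lost without Parental library 2 or Zfp352/Zfp353-DKO library 2 or 3 (edgeR adjusted p from 0.0817 to 0.176), and that of Il6st without Zfp352-KO library 2 (0.0572). With limma on log2(TPM + 1) or log2(TPM + 0.1) all 4 double knockout calls were lost, Lifr included (limma adjusted p = 0.0592 and 0.0571). In Zfp352-KO cells either form of limma left 1 fall and no rise. Removal of the length trend alone left 2 falls and no rise in Zfp352-KO cells, so both ended the Lifr call there. The replicate block ended the Lifr call in Zfp352-KO cells (edgeR adjusted p = 0.0655) and those of Il6st (0.0749) and Socs3 (0.0543) in the double knockout.

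Of 10 WNT genes, 3 fell and none rose in either comparison. The WNT target gene Sp5 fell by 1.54 ± 0.28 and 1.79 ± 0.29, from between 1.24 and 1.93 TPM in Parental to at most 0.73 TPM in edited libraries. Lef1, a TCF family gene, fell by 0.51 ± 0.10 and 0.37 ± 0.10, and the feedback gene Axin2 by 0.34 ± 0.10 and 0.45 ± 0.10. The calls of Lef1 and Axin2 in Zfp352-KO cells were lost without Parental library 1 (edgeR adjusted p = 0.053 and 0.146), which left Sp5. That of Lef1 was also lost without Parental library 2 (0.0539) or Zfp352-KO library 2 (0.0571), and that of Axin2 without Parental library 3 (0.11) or Zfp352-KO library 1 (0.152) or 3 (0.0991). In the double knockout the Lef1 call was lost without Parental library 1 (0.131) or 2 (0.168) or Zfp352/Zfp353-DKO library 1 (0.0807) or 2 (0.125). The double knockout call of Lef1 was also absent with DESeq2 (DESeq2 adjusted p = 0.0574) and with the replicate block (0.0596), and limma on log2(TPM + 1) or log2(TPM + 0.1) called Sp5 alone there. In Zfp352-KO cells limma and the replicate block ended the Axin2 call (adjusted p = 0.169, 0.168 and 0.0608), and DESeq2 gave Sp5 no adjusted p, at a log2 fold change of -1.53. Tcf7l1, the repressor of naive genes, was at 0.04 ± 0.05 and -0.01 ± 0.05 and was not called (edgeR adjusted p = 0.66 and 0.89). Of 13 FGF and ERK genes, the ETS factor gene Etv5 fell in both comparisons (-0.18 ± 0.04 and -0.19 ± 0.04), and the inhibitor genes Spry4 (0.23 ± 0.04) and Spred1 (0.25 ± 0.07) rose in the double knockout. The Etv5 call in Zfp352-KO cells was lost without any 1 of the 6 libraries compared (edgeR adjusted p from 0.0524 to 0.0981), and that in the double knockout without Parental library 2 (0.0568) or Zfp352/Zfp353-DKO library 2 (0.0833). The Spred1 call was lost without any 1 Parental library or Zfp352/Zfp353-DKO library 2 or 3 (edgeR adjusted p from 0.0685 to 0.162). With limma on log2(TPM + 1) or log2(TPM + 0.1) no FGF and ERK gene was called in Zfp352-KO cells. In the double knockout 1 rose and none fell with either form, so the Etv5 call was lost. The replicate block left no call of this list in Zfp352-KO cells and 1 rise and 1 fall in the double knockout.

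Formative genes, which are switched on as cells leave the naive state, were read from a list of 13. In Zfp352-KO cells 2 fell and 1 rose. Pou3f1, the gene of the POU factor OCT6, fell by 0.52 ± 0.08, from 15.1 ± 0.963 to 10.9 ± 1.03 TPM (SD, n = 3), and Tcf15, a basic helix-loop-helix factor gene, fell by 0.43 ± 0.07. Zic2, a zinc finger factor gene, rose by 0.19 ± 0.06. In Zfp352/Zfp353-DKO cells 4 fell and 1 rose, with Pou3f1 at -0.66 ± 0.08, the neural cadherin gene Cdh2 at -0.50 ± 0.08, the de novo methyltransferase gene Dnmt3a at -0.22 ± 0.05 and Zic2 at 0.30 ± 0.05. Grhl2, an epithelial factor gene named after its values were seen, made up the count (-0.22 ± 0.06). Its call was lost without Parental library 2 (edgeR adjusted p = 0.147) or 3 (0.0576), without Zfp352/Zfp353-DKO library 2 (0.0824) or 3 (0.0713) and with DESeq2 (DESeq2 adjusted p = 0.0647). With limma on log2(TPM + 1) or log2(TPM + 0.1) Grhl2 and Dnmt3a were both not called, which left 2 that fell. Otx2, a driver of the formative state, was at 0.13 ± 0.06 and 0.19 ± 0.06 and was not called (edgeR adjusted p = 0.20 and 0.055). The Tcf15 fall was 0.17 and not called with length and GC content removed (edgeR adjusted p = 0.0762), and the Zic2 rise in Zfp352-KO cells was lost without any 1 of the libraries compared other than Zfp352-KO library 3, and without Zfp352/Zfp353-DKO library 2 (edgeR adjusted p from 0.0535 to 0.204). With the replicate block no formative gene rose in Zfp352-KO cells, so that Zic2 call was lost there too.

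Relatives of the factors, such as other Krüppel-like genes, Esrra, Tfcp2 and Tbx2, were read from a list of 22, of which 19 were tested. None was called by edgeR as reported or by DESeq2 in any of the 3 comparisons, with an unadjusted edgeR p under 0.05 for 3 in Zfp352-KO, 8 in Zfp352/Zfp353-DKO and 1 between the edited genotypes. The share of all tested genes under that level was not computed. In the double knockout other settings of edgeR did call some: 5 rose with length and GC content removed, 2 with the length trend removed, 2 without a filter on low counts and 1 in a fit of only the 6 libraries compared. There 1 rose and 1 fell without Zfp352/Zfp353-DKO library 1, and 1 rose without Zfp352/Zfp353-DKO library 3 or Zfp352-KO library 1.

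Markers of other cell types moved beside these results. The summed TPM of 13 trophectoderm markers ran from 409 to 467 in Parental, 304 to 307 in Zfp352-KO and 270 to 282 in Zfp352/Zfp353-DKO libraries, and 5 of 12 tested fell in each edited genotype. The keratin gene Krt8, one of them, went from between 130 and 150 TPM in Parental to between 79.3 and 88.8 TPM in Zfp352-KO and between 68.75 and 76.99 TPM in Zfp352/Zfp353-DKO libraries. The keratin genes Krt18 and Krt19 fell as well and made up most of the sum together with Krt8. Cdx2 and Hand1 also fell. The other 7 tested were not called in either genotype, among them Tfap2c, Gata3, Gata2 and Eomes. For 18 fibroblast markers the sums were 765 to 802, 670 to 738 and 617 to 666 TPM, and 9 of 15 tested fell in each (1 rose in Zfp352-KO cells). For 10 primitive streak and mesendoderm markers the sums were 9.99 to 15.5, 5.49 to 7.44 and 5.83 to 6.67 TPM. Of 5 tested, T, Sp5 and Wnt3 fell after the single deletion, and T and Sp5 after both. The mean of T alone went from 4.14 to 0.703 and 0.493 TPM. DESeq2, which gave Sp5 no adjusted p in Zfp352-KO cells, called 0 of the list there and 2 in the double knockout. For 14 primitive endoderm markers the sums were 234 to 244, 197 to 217 and 185 to 202 TPM. Most of these came from Sparc, also a fibroblast marker (means 153, 127 and 115 TPM). Of 13 tested, Sparc, Col4a1 and Col4a2 fell after the single deletion. After both deletions 4 fell, these 3 among them, and Lama1 rose (0.37 ± 0.07). With limma on log2(TPM + 1) or log2(TPM + 0.1), 1 fell after the single deletion, and 3 fell and none rose after both. Gata4, Gata6, Sox17 and Sox7 were not called in either genotype. The 10 neuroectoderm markers summed to 152 to 157, 145 to 154 and 147 to 153 TPM, most of it from the tubulin gene Tubb3, which was not called. Of 5 tested, the neural stem cell gene Nes fell in each edited genotype, from between 15.4 and 16.6 TPM to between 12.4 and 13.5 and between 9.68 and 10.8 TPM. The Zfp352-KO call of Nes was lost with limma on log2(TPM + 1) (limma adjusted p = 0.0675) or log2(TPM + 0.1) (0.0657). The 11 markers of the 2-cell stage summed to 227 to 235, 267 to 283 and 221 to 244 TPM, a sum that hides opposite changes. In Zfp352-KO cells 3 of 11 rose and 3 fell, and in Zfp352/Zfp353-DKO cells 1 rose and 3 fell. Tdpoz4 fell from between 4.50 and 5.89 TPM in Parental to at most 0.41 TPM in edited libraries, B020031M17Rik from between 8.52 and 9.94 TPM to at most 4.00 TPM and Tcstv3 by 1.17 ± 0.16 and 1.58 ± 0.17 on the log2 scale. Zscan4f, a member of a family of near-identical genes whose reads may be split uncertainly, rose in Zfp352-KO cells by 0.36 ± 0.05 on the log2 scale. Tmem92 rose by 0.65 ± 0.09 after the single and 0.32 ± 0.09 after the double deletion, and the latter call was lost without Parental library 1 (edgeR adjusted p = 0.198) or 2 (0.0521) or any 1 double knockout library (0.0541 to 0.0903). DESeq2 gave Tdpoz4, Tcstv3 and B020031M17Rik no adjusted p in Zfp352-KO cells. No marker of these lists was at 0 in all libraries, and the lists share some genes. The summed TPM of the 10 factors was 2470 to 2550, 2530 to 2650 and 2610 to 2680. In bulk RNA, fewer cells of a type and less RNA per cell cannot be told apart, and the part of these markers in the values of the naive factors was not tested.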

How the data were processed

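Per the labels' protocols, RNA of 9 samples of EB5 cells was made into stranded polyadenylated-RNA libraries and sequenced as single-end reads. The tools, per the submitters' processing notes, were RSEM 1.3.3, STAR 2.7.8a and Trim Galore 0.6.6 and the genome build mm10. Their settings and strand option, and the annotation release, were not given in the sources used here. Per the file headers, the authors deposited for each gene an RSEM expected count (9.27% not whole), TPM, FPKM (not used) and transcript length in bases, a value of another kind than expression.

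The main test was edgeR 4.0.16 (R 4.3.3) on rounded expected counts, with TMM scaling, filterByExpr, glmQLFit and a two-sided glmQLFTest in 1 fit of all 9 libraries by genotype (6 residual degrees of freedom). TPM shows levels; its median log2 ratio over all tested genes was 0.04 in either comparison with Parental cells. Alternatives used DESeq2 1.42.0, limma 3.58.1 on log2(TPM + 1) or log2(TPM + 0.1), other filters and scalings, a replicate block, 1 library left out, or local regression (span 0.3) on transcript length, alone or with GC content (GENCODE M21, found for 96.3% of tested genes), entered as an offset. Scripts were tested on simulated data. The named genes are the 10 factors, Zfp352, Pou5f1, Sox2, Stat3, Tcf7l1, Otx2, Pou3f1 and up to 4 called genes of smallest adjusted p of each list. The marker genes Cdx2, Tfap2c, Gata3, Gata2, Eomes, Gata4, Gata6, Sox17 and Sox7 were named after their values were seen. Members and lists were chosen with earlier results of these data known.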

Additional observations from a re-analysis of the deposited data

How the results depend on the processing

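Of 600 values of single factors under 20 alternatives in 3 comparisons, 574 kept their side of the threshold, 20 passed it newly and 6 no longer did; 13 that were not called turned in sign, and no called value did. Tfcp2l1 and Tbx3 were called against Parental cells in all of them, and the 6 lost calls were all of Nr0b1 in the double knockout. The number of genes called in all moved more. For Zfp352-KO against Parental cells 1010 genes became 359 and 352 with limma on log2(TPM + 1) and log2(TPM + 0.1), 569 with the replicate block and 257 at an adjusted p under 0.01, and 210 to 1552 without 1 library. For Zfp352/Zfp353-DKO against Parental cells 1211 became 578 and 570 with limma and 467 at the stricter threshold, and 449 to 1337 without 1 library. With the length trend removed 787 were higher and 660 lower there, against 522 and 689. Between the edited genotypes 15 became 66 without a filter, 1 with either form of limma, 3 with only the 6 libraries compared and 3 at the stricter threshold, 40 with the length trend and 58 with length and GC content removed, and 3 to 21 without 1 library. The cause of these shifts was not tested. Whether replicate numbers of the labels pair the libraries was not settled. The correlations of same-numbered libraries' deviations from their genotype means were weak, from -0.0736 to 0.105. Yet among libraries of the other genotypes, 6 of 9 libraries correlated best with one of their own number. With the replicate block the counts were 569, 867 and 11, and Nr0b1 in the double knockout (0.21, adjusted p = 0.0606) was the only factor whose call it ended.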
